A study of Mus musculus with 4 samples.

Results

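The Polycomb repressive complexes were followed through 10 of their genes in cells sorted from lower incisors of mice, which keep growing for life. The 10 genes were chosen by name, as subunits of both complexes, and no measured value entered the choice. All 10 were among the 55487 genes of the count table, and all 10 passed the filter on low counts that left 17128 genes for testing. The knockout mice carried the genotype Ptipf/f;Sp7-cre, with 2 libraries, and the controls carried Ptipf/f without Cre, also with 2 libraries. Both groups therefore had the floxed Ptip alleles, were of strain C57 and were sampled at postnatal day 30. Ptip (symbol Paxip1) codes for a protein of the histone methyltransferase complexes built on KMT2C or KMT2D. Cre was driven by the promoter of Sp7, a transcription factor gene known from osteoblasts and odontoblasts. Cells in which Cre was never active would keep intact alleles, and which cells these were was not measured here. The controls had no Cre, so effects of Cre itself and of losing Ptip cannot be told apart. Cells had been gated as negative for CD45, Ter119 and Tie2, and the labels call them dental progenitor cells of the dental pulp. How many animals gave each library is not stated.

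Polycomb proteins keep developmental genes silent. Polycomb repressive complex 2 (PRC2) methylates lysine 27 of histone H3. Its catalytic subunit is EZH2 or the paralogue EZH1, and EED and SUZ12 are needed for activity. Polycomb repressive complex 1 (PRC1) attaches ubiquitin to histone H2A through RING1 or RNF2, each paired with a PCGF protein such as BMI1 or PCGF2. In its canonical form PRC1 also holds a CBX protein such as CBX2 or CBX7, which binds the methylated lysine. KMT2C and KMT2D complexes act against this silencing, and one of their subunits, KDM6A, removes the methyl groups that PRC2 adds. EZH2 is known as a gene of dividing cells and as a target of E2F transcription factors, whereas EZH1 is also found in cells that no longer divide.

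Library totals were 19142757 and 17770831 counts in knockouts 1 and 2 and 15154246 and 15394782 in controls 1 and 2. Values below are CPM, counts scaled to a common library size after TMM scaling, unless stated otherwise, and fold changes are the fitted ones of edgeR's quasi-likelihood test. Paxip1 itself had 5.69 and 3.98 CPM in knockouts 1 and 2, against 28.3 and 44.3 CPM in controls 1 and 2. Its log2 fold change of -2.91 (SE 0.48) did not pass edgeR's test over all genes (adjusted p = 0.15) and passed in DESeq2 (adjusted p = 9.02e-06). The sorted cells were not of one kind. Ptprc, which encodes CD45, had 39.2 and 9.25 CPM in the knockouts and 140 and 144 CPM in the controls, and Ambn, an enamel matrix gene, had 18171 CPM or more in every library. In such a mixture, fewer cells of a type and less RNA per cell cannot be told apart.

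The results turn on Ezh2 and Suz12, and their promoters are shown with that of the accessory PRC2 gene Phf19 and, for contrast, that of Ezh1. Each window runs from 250 bases before to 50 bases after the start of the gene, in RefSeq's table for GRCm38.p6. Capitals mark the 8-base E2F consensus, searched on both strands as TTTCCCGC, TTTCGCGC, TTTGCCGC and TTTGGCGC. The Ezh2 window (chr6:47594981-47595280, minus strand) holds a match that begins 3 bases downstream of the RefSeq start. GENCODE, used below for coordinates, places the start of Ezh2 at 47595341, upstream of this window. The Suz12 window (chr11:79992856-79993155, plus strand) holds 1 match and the Phf19 window (chr2:34913927-34914226, minus strand) holds 1 on the opposite strand. The Ezh1 window (chr11:101226414-101226713, minus strand) holds none.
Ezh2: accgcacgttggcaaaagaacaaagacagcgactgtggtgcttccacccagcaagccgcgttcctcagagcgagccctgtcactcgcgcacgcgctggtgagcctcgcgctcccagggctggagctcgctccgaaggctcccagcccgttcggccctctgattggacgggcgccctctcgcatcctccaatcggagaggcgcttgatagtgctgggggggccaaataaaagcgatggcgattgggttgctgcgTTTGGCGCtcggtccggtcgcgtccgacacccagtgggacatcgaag
Suz12: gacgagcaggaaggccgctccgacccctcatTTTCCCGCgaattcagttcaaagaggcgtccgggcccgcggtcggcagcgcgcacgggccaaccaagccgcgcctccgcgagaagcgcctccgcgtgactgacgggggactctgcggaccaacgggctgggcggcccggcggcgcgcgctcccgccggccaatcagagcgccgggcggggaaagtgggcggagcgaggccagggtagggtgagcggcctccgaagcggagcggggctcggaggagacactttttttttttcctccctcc
Phf19: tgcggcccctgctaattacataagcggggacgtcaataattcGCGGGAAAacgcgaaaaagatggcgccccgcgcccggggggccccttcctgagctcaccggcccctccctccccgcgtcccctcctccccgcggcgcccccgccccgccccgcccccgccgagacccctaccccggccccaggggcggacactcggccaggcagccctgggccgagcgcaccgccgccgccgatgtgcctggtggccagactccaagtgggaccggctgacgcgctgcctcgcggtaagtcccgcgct
Ezh1: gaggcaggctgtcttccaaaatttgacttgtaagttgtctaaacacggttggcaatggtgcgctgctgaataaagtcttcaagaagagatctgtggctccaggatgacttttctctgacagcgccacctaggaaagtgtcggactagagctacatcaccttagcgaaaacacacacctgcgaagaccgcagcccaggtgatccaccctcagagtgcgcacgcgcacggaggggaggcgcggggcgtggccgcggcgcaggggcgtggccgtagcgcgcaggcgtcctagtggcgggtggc

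Windows were found for 9 of the 10 members, with Cbx2 unmatched, and 2 of these 9 genes held a match. Of the 27025 genes with a window, 704 held one, a share of 2.6%. Among the PRC2 partners it was 1 of 8, Phf19, with no match for Rbbp4 or Jarid2. Among the cell cycle genes used below it was 10 of 25, and among canonical PRC1 partners, variant PRC1 subunits and genes of the H2A deubiquitinase complex it was 0 of 7, 0 of 9 and 0 of 7. A match describes these letters only and is not evidence of binding.

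Among the PRC2 genes, both knockout libraries had less Ezh2 and Suz12 than either control, whereas Eed and Ezh1 overlapped between the groups. Ezh2, the gene of the main catalytic subunit (ENSMUSG00000029687, chromosome 6, 47530139 to 47595341, GRCm38), had 29.0 and 23.8 CPM in knockouts 1 and 2, against 88.4 and 93.2 CPM in controls 1 and 2. The libraries of each group lay close together and the groups were far apart. Ezh2 averaged 26.4 ± 3.71 CPM in knockouts and 90.8 ± 3.35 CPM in controls (SD, n = 2 each), a 3.44-fold lower level with a log2 fold change of -1.78 (SE 0.34). The adjusted p was 0.15 in edgeR over all genes, which did not pass 0.05, and 0.00138 in DESeq2, which did. Leaving out each library in turn gave log2 fold changes between -1.92 and -1.60. Ezh2 shares 174 exon bases with Gm26625 on the opposite strand, a gene without counts here, so some Ezh2 reads could be of that gene.

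Suz12, which encodes the subunit that holds the complex together (ENSMUSG00000017548, chromosome 11, 79993106 to 80034123), had 7.43 and 9.70 CPM in knockouts 1 and 2, against 29.4 and 19.8 CPM in controls 1 and 2. The groups did not overlap, and control 1 stood above control 2. The fitted level was 2.87-fold lower (log2 fold change -1.52, SE 0.46), with an adjusted p of 0.191 in edgeR and 0.0556 in DESeq2. Suz12 thus passed in neither. It shares 178 exon bases with Gm26563 on the opposite strand, also a gene without counts here, which sets the same limit.

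Eed, which encodes the subunit that reads methylated lysine 27 (ENSMUSG00000030619, chromosome 7), had 50.8 and 46.6 CPM in the knockouts, against 58.2 and 47.0 CPM in the controls. Knockout 1 lay between the controls, and the log2 fold change of -0.11 (SE 0.34) was well within its error. Eed shares 261 exon bases with E230029C05Rik on the opposite strand, a gene with 24 and 40 counts in the knockouts and 34 and 37 in the controls. Ezh1, the gene of the alternative catalytic subunit (ENSMUSG00000006920, chromosome 11), had 75.3 and 109 CPM in the knockouts, against 51.7 and 81.5 CPM in the controls. In Ezh1, knockout 1 lay between the controls and knockout 2 above both. Its log2 fold change was 0.47 (SE 0.39, edgeR adjusted p = 0.606), and 0.20 without control 1 and 0.81 without control 2.

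**Figure D1:**
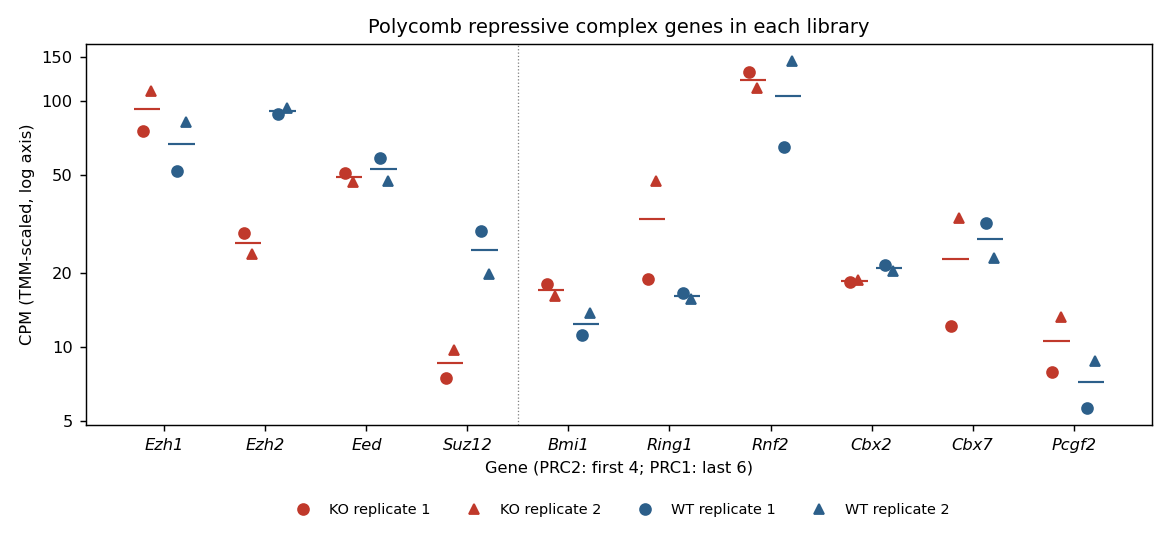
CPM of the 10 Polycomb genes in each library, on a log axis, with knockouts in red to the left and controls in blue to the right of each gene; circles are replicate 1, triangles replicate 2 and bars the group means. Ezh2 and Suz12 have both knockouts well below both controls, and in Ring1, Rnf2 and Cbx7 a single library stands apart from the rest of its group.

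Because EZH2 and EZH1 take the same place in PRC2, the 2 genes were compared with each other on a scale of CPM per kilobase of merged exons. On that scale Ezh2 stood at 0.429 and 0.242 times the level of Ezh1 in knockouts 1 and 2, and at 1.90 and 1.27 times in controls 1 and 2. Ezh1 was therefore the more abundant transcript in both knockouts and Ezh2 in both controls. The mean log2 ratio was -1.63 ± 0.58 in knockouts and 0.64 ± 0.41 in controls (SD, n = 2 each), a 4.83-fold difference. The exact two-sided permutation test over the 4 libraries gave p = 0.33, the smallest value that 2 against 2 libraries allow. Ezh2 made up 30% and 19.5% of the summed level of both genes in the knockouts, against 65.6% and 56.0% in the controls. That sum was 14.5 and 18.2 CPM per kilobase in the knockouts and 20.2 and 24.9 in the controls, so the groups did not overlap for the sum either. With the length of the longest transcript in place of merged exons, the ratios became 0.582 and 0.329 in the knockouts and 2.58 and 1.73 in the controls, on the same sides of 1.

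The other subunits of PRC2 also went in more than 1 direction. Of 8 tested partners, 3 had an unadjusted p under 0.05 and a lower level, 0 had a higher one, and none passed the adjusted test. Of all tested genes, 9.89% were lower and 7.32% higher at that threshold. Rbbp4, which encodes a histone-binding core subunit shared with other chromatin complexes, had 151 and 144 CPM in the knockouts, against 516 and 311 CPM in the controls (log2 fold change -1.48, SE 0.38, edgeR adjusted p = 0.165). Its close paralogue Rbbp7, which can take the same place, had 520 and 391.7 CPM in the knockouts, against 240 and 290 CPM in the controls (log2 fold change 0.78, SE 0.34, edgeR adjusted p = 0.304). Neither gene overlapped between the groups, and they lay on opposite sides. Because the pair is similar in sequence, reads could be assigned to either, so both values are uncertain to that extent.

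Jarid2, a subunit that helps bring PRC2 to its targets, had 35.8 and 35.1 CPM in the knockouts, against 94.1 and 66.6 CPM in the controls (log2 fold change -1.18, SE 0.36). Phf19, a Polycomb-like accessory gene, had 2.10 and 3.20 CPM in the knockouts, against 12.8 and 8.40 CPM in the controls (log2 fold change -2.0, SE 0.62). Both were lower in each knockout than in each control. Mtf2 and Phf1, the other Polycomb-like genes, overlapped between the groups, with log2 fold changes of 0.10 (SE 0.33) and 0.09 (SE 0.50). In DESeq2, Rbbp4 (adjusted p = 0.0125) and Phf19 (adjusted p = 0.0481) passed and Jarid2 (adjusted p = 0.0745) did not. Ezhip, which encodes an inhibitor of PRC2, had 0 counts in all 4 libraries, and Epop reached at most 2.52 CPM.

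Of the 6 PRC1 genes, Bmi1 and Ring1 had both knockouts above both controls, Cbx2 had both below, and Rnf2, Cbx7 and Pcgf2 overlapped. For the catalytic pair, Ring1 (ENSMUSG00000024325, chromosome 17) had 18.9 and 47.2 CPM in knockouts 1 and 2, against 16.5 and 15.6 CPM in controls 1 and 2. Both knockouts were above both controls, but only knockout 2 by much. The log2 fold change of 1.04 (SE 0.52, edgeR adjusted p = 0.367) was 0.28 without knockout 2 and 1.57 without knockout 1. Rnf2 (ENSMUSG00000026484, chromosome 1), the paralogue with the stronger ligase activity, had 131 and 112 CPM in the knockouts, against 64.5 and 145 CPM in the controls. Its controls differed more from each other than from the knockouts, and the log2 fold change of 0.22 (SE 0.44) was -0.23 without control 1. Rnf2 shares 158 exon bases with Trmt1l on the opposite strand, so some of its reads could be of that gene.

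Bmi1, also known as Pcgf4 (ENSMUSG00000026739, chromosome 2), had 17.9 and 16.1 CPM in the knockouts, against 11.1 and 13.7 CPM in the controls. The groups did not overlap, but the log2 fold change of 0.46 was close to its SE of 0.43. Its paralogue Pcgf2 (ENSMUSG00000018537, chromosome 11), also known as Mel18, had 7.89 and 13.2 CPM in the knockouts, against 5.63 and 8.72 CPM in the controls. Knockout 1 lay between the controls (log2 fold change 0.55, SE 0.56).

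Of the chromobox genes, Cbx2 (ENSMUSG00000025577, chromosome 11) had 18.3 and 18.7 CPM in the knockouts, against 21.4 and 20.4 CPM in the controls. The groups were separate by a narrow margin (log2 fold change -0.17, SE 0.39). Cbx7 (ENSMUSG00000053411, chromosome 15) had 12.1 and 33.3 CPM in the knockouts, against 31.9 and 23.0 CPM in the controls. The knockouts enclosed both controls, so no direction can be given, and the log2 fold change of -0.27 (SE 0.55) was 0.29 without knockout 1 and -1.13 without knockout 2. Cbx7 shares 100 exon bases with Apobec3 on the opposite strand, and Apobec3 had 1410 and 819 counts in the knockouts, against 3545 and 3335 in the controls.

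In all, edgeR called 0 of the 10 members at an adjusted p of 0.05, as it did 0% of the 17128 tested genes. At an unadjusted p under 0.05, 2 members (Ezh2 and Suz12) were lower and 0 higher, beside the 9.89% and 7.32% of all tested genes. DESeq2 called 1 member, Ezh2, where it called 8.42% of 17361 genes in either direction. Both knockouts lay below both controls for 3 members and above them for 2, where 24.9% and 25.8% of tested genes did so. The shares of 3 and 2 in 10 are near that background. The median log2 fold change of the members was 0.05, against 0.00 over all tested genes. Under both other scalings, and with the replicate number as a block, each member kept the sign of its fold change.

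**Figure D2:**
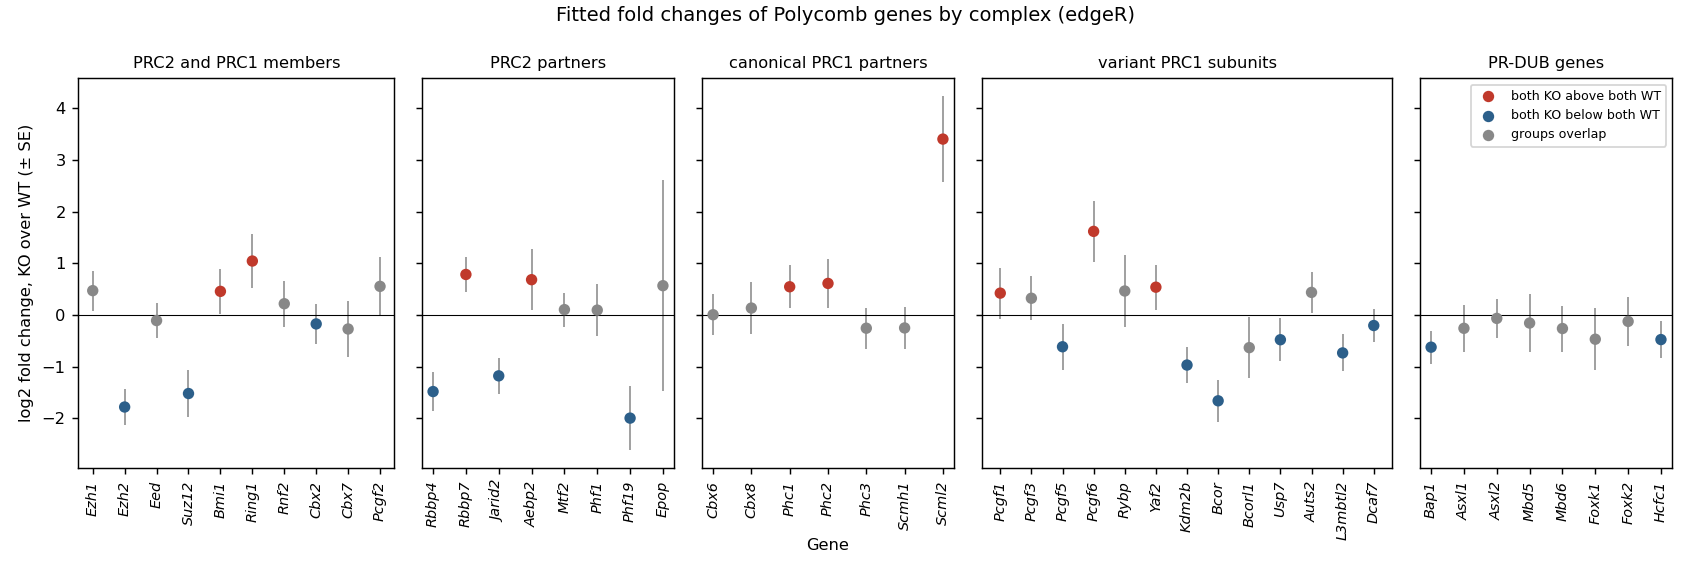
Fitted log2 fold change (KO over WT) with its SE for the 10 members and 4 lists of other Polycomb genes; red points have both knockouts above both controls, blue points both below, and grey points overlap. Phf19, Ezh2, Suz12, Rbbp4 and Jarid2 of PRC2 lie between -2.0 and -1.18, with Bcor of variant PRC1 among them at -1.66, and Scml2 at 3.40 is the most positive gene shown.

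The ratios between the PRC1 paralogues, again per kilobase of merged exons, overlapped between the groups in each of 3 pairs. Bmi1 stood at 2.02 and 1.08 times Pcgf2 in the knockouts and 1.75 and 1.39 times in the controls. Rnf2 stood at 5.45 and 1.87 times Ring1 in the knockouts and 3.08 and 7.28 times in the controls. Cbx2 stood at 2.3 and 0.854 times Cbx7 in the knockouts and 1.02 and 1.35 times in the controls. The differences in mean log2 ratio were -0.08, -0.57 and 0.26, with exact two-sided permutation p = 1.0, 0.667 and 1.0. The difference of Ezh2 over Ezh1, at -2.27, was the one pair of the 4 in which the groups were separate.

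**Figure D3:**
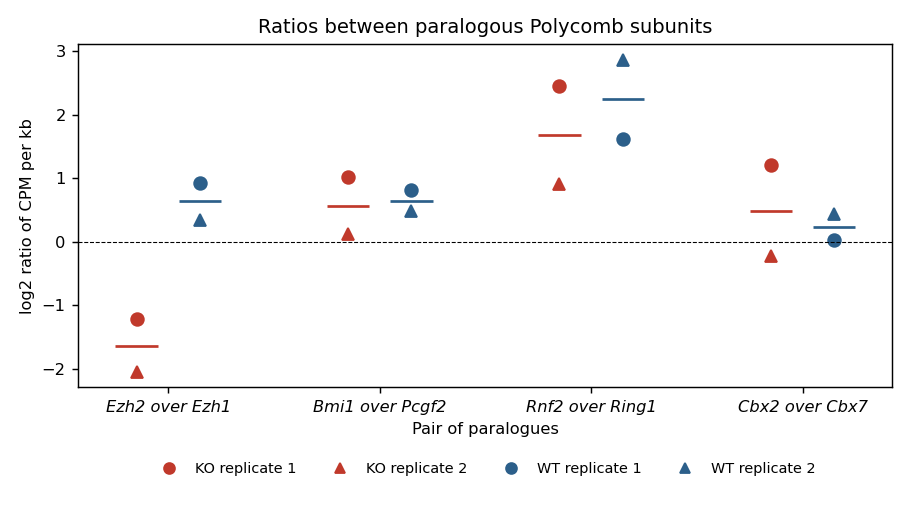
log2 ratio of CPM per kilobase between 4 pairs of paralogues in each library, knockouts in red on the left and controls in blue on the right of each pair, with bars for the group means and a dashed line at equal levels. Ezh2 over Ezh1 lies below the line in both knockouts and above it in both controls, and the other 3 pairs overlap.

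Per kilobase of merged exons, Rnf2 had the highest mean level of the 10 genes in both groups, at 29.4 ± 3.18 CPM per kilobase in knockouts and 25.3 ± 13.7 in controls (SD, n = 2 each). Eed came next, at 12.7 ± 0.78 in knockouts and 13.7 ± 2.06 in controls. In the knockouts Ezh1 followed at 12.4 ± 3.22 and Ring1 at 10.2 ± 6.18, which did not differ from Eed beyond their spread. In the controls Ezh2 was the third at 13.6 ± 0.50, level with Eed. Ezh1 was the fourth in the controls at 8.96 ± 2.83. In the knockouts Cbx2 (4.35 ± 0.05), Bmi1 (4.28 ± 0.33), Ezh2 (3.95 ± 0.56) and Cbx7 (3.5 ± 2.31) did not differ beyond their spread. Suz12 was the lowest in the knockouts at 1.73 ± 0.32, and in the controls it stood at 4.98 ± 1.38, beside Ring1 at 4.95 ± 0.19 and Cbx2 at 4.91 ± 0.17. Pcgf2 was the lowest in the controls at 2.04 ± 0.62. This order holds for merged exons only. Ezh2 has 6678 bases of merged exons and 2787 in its longest transcript, against 4257 and 3807 for Cbx2 and 3828 and 2067 for Eed. Scaling by the longest transcript would therefore raise Ezh2 more than Cbx2 or Eed, and the order on that scale is not given here.

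The remaining PRC1 genes lay on both sides of 0. Of 7 tested canonical partners, 1 had an unadjusted p under 0.05 and was higher and 0 were lower, beside 7.32% and 9.89% of all tested genes, and the median log2 fold change was 0.13. Scml2, an X-linked SCM family gene, had 4.97 and 7.79 CPM in the knockouts, against 0.556 and 0.636 CPM in the controls. These control values rest on 8 and 10 counts, and the log2 fold change of 3.40 (SE 0.83) had an adjusted p of 0.165 in edgeR and 0.00478 in DESeq2. Phc3, a polyhomeotic gene, overlapped between the groups, with 41.8 and 49.7 CPM in the knockouts, against 40.7 and 68.7 CPM in the controls (log2 fold change -0.26, SE 0.39).

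Of 13 tested subunits of variant PRC1, which lacks the CBX proteins, 1 had an unadjusted p under 0.05 and was higher and 2 were lower, counts near the shares over all tested genes (7.32% and 9.89%). Bcor, a corepressor gene of the variant complex with PCGF1, had 34.6 and 19.7 CPM in the knockouts, against 76.5 and 95.6 CPM in the controls (log2 fold change -1.66, SE 0.41). Its partner Kdm2b, which brings that complex to unmethylated CpG islands, had 29.4 and 31.4 CPM in the knockouts, against 59.6 and 59.5 CPM in the controls (log2 fold change -0.97, SE 0.34). Both genes were separate between the groups. Pcgf6, the PCGF subunit of another variant form, had 16.9 and 23.5 CPM in the knockouts, against 3.75 and 9.42 CPM in the controls (log2 fold change 1.62, SE 0.59), a fold change of 1.12 on the log2 scale without control 1 and 2.40 without control 2. By edgeR none passed (adjusted p = 0.165, 0.224 and 0.235), and in DESeq2 Bcor did (adjusted p = 0.00857). The 8 genes of the deubiquitinase complex that removes the PRC1 mark all had negative fold changes, from -0.62 to -0.07, and none had an unadjusted p under 0.05. Bap1, its catalytic subunit, had 140 and 142 CPM in the knockouts, against 238 and 196 CPM in the controls.

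On the side that opposes Polycomb, 1 of 10 tested genes was higher and 1 lower at an unadjusted p under 0.05 (7.32% and 9.89% of all tested genes), the lower one being Paxip1. Kmt2c had 25.9 and 28.1 CPM in the knockouts, against 32.5 and 47.1 CPM in the controls (log2 fold change -0.56, SE 0.38). The genes of the H3K27 demethylases overlapped between the groups. Kdm6a had 46.7 and 30.3 CPM in the knockouts, against 32.5 and 69.9 CPM in the controls, and Kdm6b had 48.9 and 33.5 CPM in the knockouts, against 42.1 and 27.6 CPM in the controls. Kmt2d also overlapped (log2 fold change -0.05, SE 0.42). Ash2l, a core subunit of all KMT2 complexes, had 46.8 and 78.9 CPM in the knockouts, against 29.2 and 23.5 CPM in the controls (log2 fold change 1.25, SE 0.41, edgeR adjusted p = 0.207).

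Of the genes that Polycomb is known to silence, the Hox genes were at or near 0, with at most 5.63 CPM. Of 39 Hox genes, 22 had no count in any library, which allows up to 0.157 to 0.198 CPM per library by the limit of 3 counts. More than 3 counts in at least 1 library were reached by 4 Hox genes in the knockouts and by 12 in the controls, although the knockout libraries were deeper. Of these 12, only Hoxa9 (47 and 30 counts) and Hoxd9 did so in both controls, and the rest in a single control library. The summed level of all Hox genes was 2.72 and 1.01 CPM in the knockouts and 12.6 and 7.26 CPM in the controls. Of the 3 Hox genes tested, all had negative fold changes, and Hoxd9 had the smallest p, with 1 and 0 counts in the knockouts and 16 and 10 in the controls. Cdkn2a, the classic Polycomb target among cell cycle inhibitors, had 10 and 0 counts in the knockouts and 5 and 0 in the controls. Its neighbour Cdkn2b had 4.2 and 0.841 CPM in the knockouts, against 9.46 and 9.67 CPM in the controls (log2 fold change -1.92, SE 0.85, edgeR adjusted p = 0.312). That fold change was -3.49 without knockout 1 and -1.14 without knockout 2. Of 30 other developmental regulators on the list, 13 had no more than 3 counts in any library and 4 were tested. Among these, Sox17 had 30.9 and 24.3 CPM in the knockouts, against 36.9 and 60.0 CPM in the controls, and Hand1 had 8.71 and 8.13 CPM in the knockouts, against 1.81 and 6.68 CPM in the controls. The log2 fold change of Hand1, 0.98, was 0.36 without control 1 and 2.18 without control 2. None of the 4 had an unadjusted p under 0.05.

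Proliferation genes and markers of blood cells differed between the same libraries as Ezh2 and Suz12. All 30 cell cycle genes had negative fold changes, with a median of -1.46. In 29 both knockouts lay below both controls, and 21 had an unadjusted p under 0.05. Over all 17128 tested genes, 8542 had negative fold changes, 24.9% had both knockouts below both controls and 9.89% were lower at that threshold. Of these 30, 9 had a more negative fold change than Ezh2 and 21 a less negative one. Set against the mean log2 CPM of the list in the same library, Ezh2 stood at -0.54 and -0.15 in the knockouts and -0.38 and 0.21 in the controls, and Suz12 at -2.49 and -1.44 against -1.96 and -2.02. On that scale the groups overlapped for both genes.

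Over all tested genes, both knockouts lay below both controls for 24.9% and above them for 25.8%, the background for the counts that follow. For erythroid markers, 9 of 9 were lower in both knockouts, and their summed level was 89.6 and 107 CPM in the knockouts and 431 and 416 CPM in the controls. For leukocyte markers it was 14 of 20, with sums of 1165 and 302 CPM in the knockouts and 6775 and 2179 CPM in the controls, and none of these markers was at 0. Endothelial markers were lower in both knockouts for 5 of 10, with sums of 738 and 710 CPM in the knockouts and 865 and 1425 CPM in the controls. Schwann cell markers were lower in both knockouts for 6 of 9 and higher for 1, Sox10 (log2 fold change 0.66, SE 0.97). The remaining 2 overlapped between the groups. The sums of this list were 714 and 495 CPM in the knockouts and 2729 and 2007 CPM in the controls. The largest part was Cnp, with 391 and 209 CPM in the knockouts and 2013 and 849 CPM in the controls. Markers of dental epithelium were lower in both for 7 of 11, with sums of 34930 and 42100 CPM in the knockouts and 63631 and 22847 CPM in the controls. Those of odontoblasts were lower for 4 of 10 and higher for 2, with sums of 15552 and 26570 CPM in the knockouts and 18590 and 41543 CPM in the controls. The groups overlapped in both sums, each of which was mostly a single gene. Ambn alone had 31001 and 41111 CPM in the knockouts and 52583 and 18171 CPM in the controls. Col1a1 alone had 14440 and 24543 CPM in the knockouts and 17241 and 38662 CPM in the controls. Markers of dental mesenchyme were higher in both knockouts for 9 of 11, with sums of 3862 and 3409 CPM in the knockouts and 1035 and 1274 CPM in the controls. The part of these cell types and of proliferation in the Polycomb values was not tested.

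**Figure D4:**
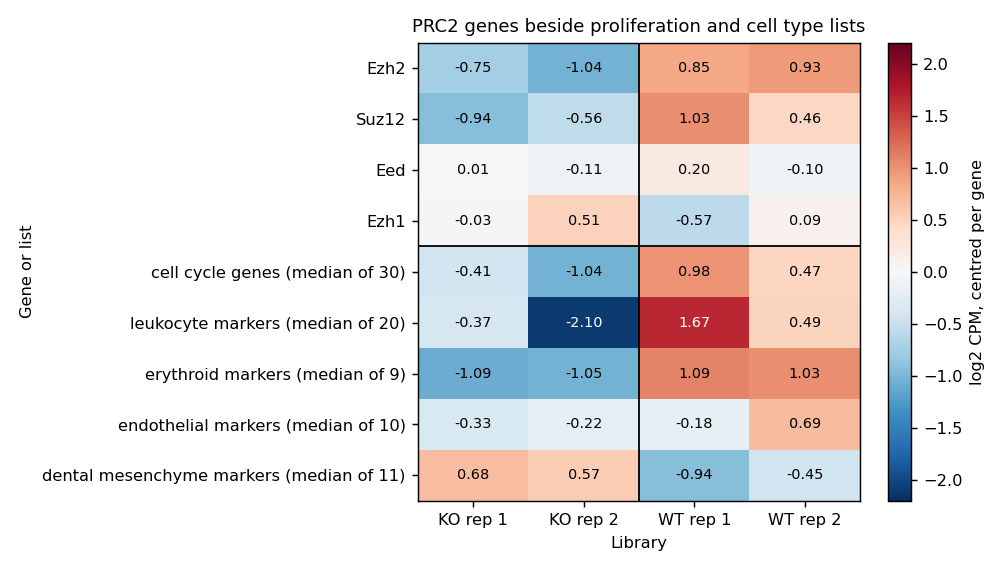
log2 CPM centred per gene in each library (columns, knockouts left) for 4 PRC2 genes and, below the line, the medians of cell cycle genes and of 4 marker lists; red is above and blue below the gene's mean over the 4 libraries. Ezh2 and Suz12 are below 0 in both knockouts and above 0 in both controls, as are the cell cycle, leukocyte and erythroid medians, while Eed stays near 0. Of lists not drawn, the medians of Schwann cell markers, dental epithelium markers, Hox genes and the genes that oppose Polycomb have the same signs, as has Cdkn2b.

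The genes whose pattern over the 4 libraries was most like that of Ezh2, by the root mean square difference of log2 CPM centred per gene, were Hist1h3g (0.04), Cnbd2 (0.05), Gm45606 (0.06), Ssh2 (0.07) and Ccdc88c (0.07). Of these Ssh2, a slingshot phosphatase gene, was the most abundant, with 39.5 and 29.3 CPM in the knockouts and 108 and 112 CPM in the controls. Hist1h3g is a member of the histone H3 multigene family, so its reads are uncertain, and it had 3.25 CPM or less. Those most like Ezh1 were Golga2 (0.01), Gda (0.01), Ckap2 (0.02), Ankrd40 (0.03) and 4930599N23Rik (0.03). Of the 17128 tested genes, those of chromosome 18 and those without an annotated chromosome were left out of this search. With so many genes and 4 libraries, close matches to a pattern may be common, and their number was not counted. The lists are a description only.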

How the data were processed

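Polyadenylated RNA had been copied with oligo-dT primers and template switching, amplified by PCR and fragmented with a transposase kit, per the labels' protocols; such libraries mark neither molecules nor strand. The authors deposited raw counts, 1 whole number per gene and library. Tools named by the submitters' processing notes are featureCounts 2.0.1, Bowtie2 2.3.5.1 and Trim Galore 0.6.6, with build GRCm38; the annotation release is not given in the sources used here. GENCODE release M21 gave symbols, coordinates and exon lengths for 55227 IDs, and RefSeq the promoter windows.

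Groups were compared two-sided by quasi-likelihood in edgeR 4.0.16 (R 4.3.3), with TMM scaling, filterByExpr and Benjamini-Hochberg adjustment over 17128 genes. Each SE is the absolute log2 fold change over the square root of F. Alternatives were DESeq2 1.42.0, limma-voom (limma 3.58.1), other scalings and filters, a replicate block and each library left out. The code was tested on simulated data.

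Named genes are the 10 members, Paxip1, per Polycomb-related list the higher and the lower gene of smallest p, and Kmt2c, Kmt2d, Kdm6a, Kdm6b, Cdkn2a and Cdkn2b; lists of other cell types are given by counts and sums. Jarid2, Phf19, Mtf2, Phf1, Epop, Ezhip, Kdm2b, Hoxa9, Ambn, Ptprc, Sox10, Cnp and Col1a1 were added after their values were seen. One canonical PRC1 partner is not reported here. Members and lists were chosen with earlier results of these data known. Nothing says that the libraries came from separate animals, so p-values measure only the spread between libraries, which may be technical. Limits cover counting error only.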

Additional observations from a re-analysis of the deposited data

How the results depend on the processing

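Ezh2 kept a negative log2 fold change under all 11 alternatives. It passed the adjusted test in DESeq2 (-1.80) and without a filter on low counts (-1.80), which made it the 1 member called by each, and in none of the other alternatives. Without the filter the fit does not use a gene's own spread, so its p-values can be too small. Over all genes, 449 were called higher and 1005 lower without the filter, 472 and 990 in DESeq2, and 59 and 185 with the replicate block, where Ezh2 did not pass (-1.79, adjusted p = 0.0575). Same-numbered libraries deviated together only weakly (correlation 0.145 over genes), and the labels name no pairing. With 1 library left out, 0 to 215 genes were called higher (0 without control 2, 215 without knockout 1) and 0 to 703 lower. Members at an unadjusted p under 0.05 were then 0 to 1 higher (Ring1, without knockout 1) and 1 to 2 lower, with Suz12 lost without knockout 1 or control 1; without the filter 1 was higher. These counts, and the alternatives for genes outside the 10 members, were chosen after seeing the data.

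Directions that turned with 1 library left out were those of Eed (-0.29 to 0.077), Rnf2 (-0.23 to 0.88), Cbx7 (-1.13 to 0.29), Kmt2d (-0.42 to 0.36), Kdm6a (-0.83 to 0.20) and Kdm6b (-0.072 to 0.605). So did the differences in log2 ratio for Bmi1 over Pcgf2 (-0.53 to 0.37), Rnf2 over Ring1 (-1.34 to 0.20) and Cbx2 over Cbx7 (-0.46 to 0.97). Other values spread without their sign turning. Among them were Ring1 (0.28 to 1.57), Suz12 (-1.81 to -1.185), Ezh1 (0.20 to 0.81), Pcgf2 (0.18 to 0.89) and Hoxd9 (-6.82 to -3.86). Bmi1 spread less (0.34 to 0.58). The cause was not tested. The stricter filter moved the median fold change of all genes by -0.10. Pcgf2 did not pass the stricter filter and has no value there. A group left with 1 library was assumed to vary like the other.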
